A study of Mus musculus with 6 samples.

Results

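A group of 10 genes for transcription factors of regulatory T cells (Tregs) and of resting T cells was examined in a count table of 32245 gene symbols. The genes were chosen by name: Foxp3, Ikzf2 (Helios), Ikzf4 (Eos), Bach2, Lef1, Tcf7 (TCF-1), Satb1, Id3, Foxp1 and Runx1. All 10 were found in the table, and each passed the filter on low counts. The question was whether their RNA differed after induced deletion of Zfp335, a zinc finger transcription factor. RNA-seq had been performed on CD4+CD25+ Tregs sorted from the spleens of C57BL/6 mice, with 3 libraries from WT mice and 3 from ERCre+ Zfp335 f/f (KO) mice. Mice received 3 injections of tamoxifen at 10 mg/mL on days 1, 3 and 5 from 6 weeks of age and were sacrificed on day 7. In the labels the controls are littermates of wild type and tamoxifen is absent, while the methods describe ERCre controls that also received tamoxifen. ERCre is a Cre recombinase that tamoxifen activates, and it is not restricted to Tregs as a Cre driven by Foxp3 would be. Whether a library came from a single mouse or from a pool is not given in the sources used here, so the p-values measure only the spread between libraries, which may be technical.

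Foxp3 is the factor that defines the Treg lineage and maintains its suppressive programme. Helios and Eos, of the Ikaros zinc finger family, and Runx1 act together with Foxp3 at many of its target genes. Bach2, TCF-1, Lef1, Satb1, Foxp1 and Id3 are shared with naive or memory-like conventional T cells, where they hold back effector differentiation or keep cells in a resting state, and several of them are high in resting Tregs and lower in effector Tregs.

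In short, the 10 factors differed little between the groups. Bach2 was 17.4% higher in KO Tregs, Lef1 and Tcf7 were higher by 8.05% and 7.73%, Foxp3 fell by 7.42% and Id3 fell by 15.2%, each with an adjusted p under 0.05 (edgeR, quasi-likelihood, Benjamini-Hochberg over the 17307 genes tested). Thus 5 of the 10 were called, 3 of them higher and 2 lower in KO, whereas 24.1% of all genes tested were called (12.0% higher and 12.1% lower). The split of the factors moved with the scaling, to 1 higher and 3 lower with library sizes alone and to 6 higher and 1 lower with scaling on T cell receptor complex genes, and was 2 higher and 3 lower without WT replicate 1. All of the factors were well expressed, and among the 4312 genes with a mean of at least 50 CPM (the count scaled to a common library size with TMM factors, in edgeR's cpm unit) 35.8% were called. None of the 10 reached a 1.5-fold difference, whereas 6.95% of all genes did so with an adjusted p under 0.1 and an unadjusted p under 0.05. In 8 of the 10 the 3 WT and the 3 KO libraries did not overlap (5 higher, 3 lower in KO), against 38.3% of all genes (19.3% higher and 19.1% lower). Bach2 and Id3 were called under each of 21 other analysis settings, while the calls of Foxp3, Lef1 and Tcf7 depended on single libraries or on the scaling.

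**Figure D1:**
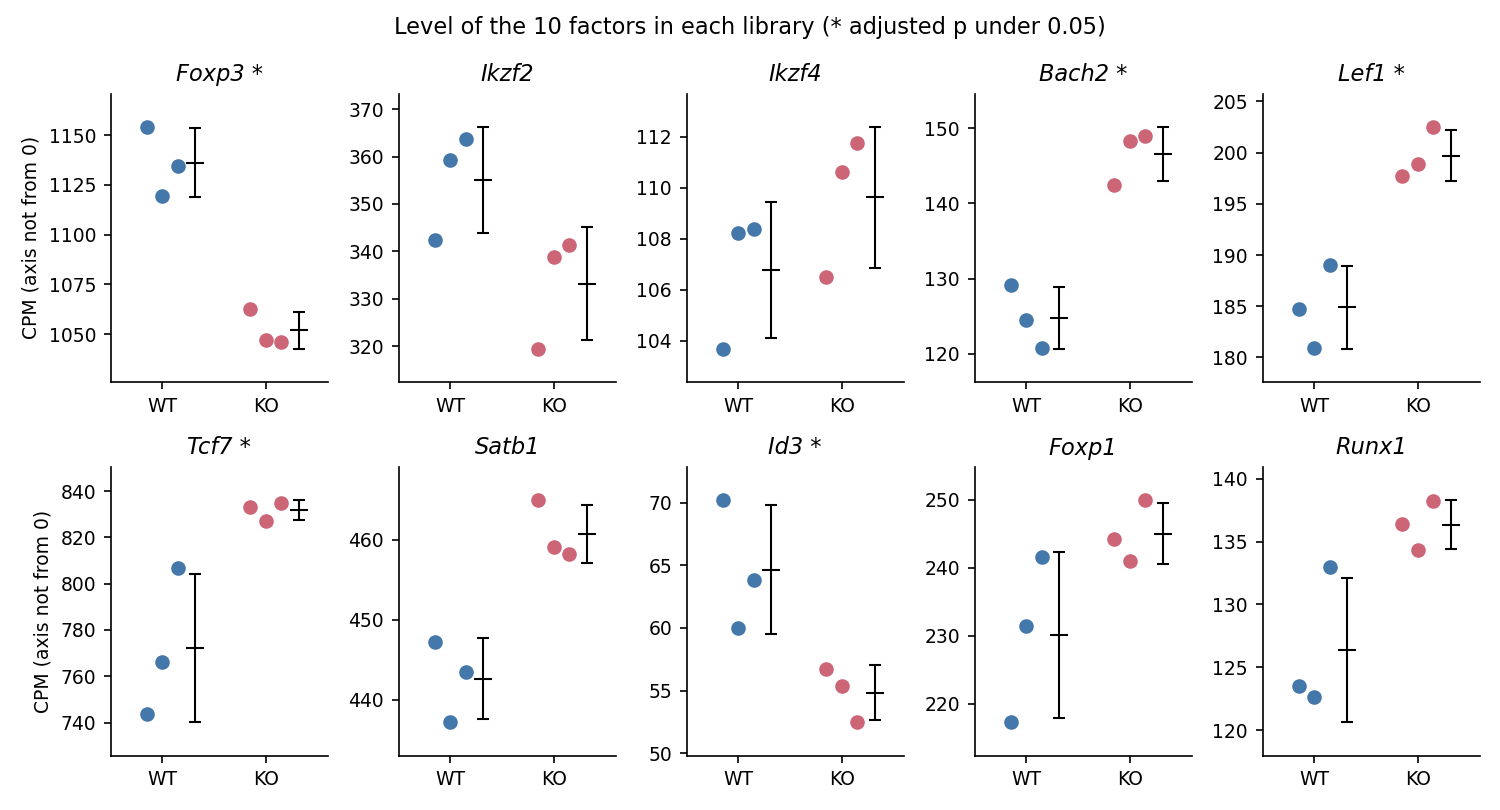
CPM of each of the 10 factors (y axis, which does not start at 0) in the 3 WT libraries (blue) and the 3 KO libraries (red), with replicates 1, 2 and 3 from left to right and the mean ± SD in black. An asterisk marks the 5 factors with an adjusted p under 0.05, and the groups overlap only for Ikzf4 and Foxp1.

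The deleted gene separated the libraries by their labels. Zfp335 was at 124, 121 and 115 CPM in WT replicates 1, 2 and 3 and at 14.96, 14.3 and 15.1 CPM in KO replicates 1, 2 and 3 (log2 fold change -3.02, SE 0.046, adjusted p = 1.2e-13 from edgeR). The labelled cell type was checked against its markers. Cd4, Cd3e, Foxp3, Il2ra, Ctla4 and Tnfrsf18 were each present in all 6 libraries, together at 3232 to 3258 CPM in WT and 3330 to 3400 CPM in KO. Markers of other cells were present at low levels. All 8 B cell markers were called lower, and their sum was 66.4 to 72.2 CPM in WT and 30.1 to 31.95 CPM in KO. The 6 red cell markers were likewise all called lower (36.6 to 43.5 CPM in WT, 1.81 to 2.31 CPM in KO), as were 5 of 8 myeloid markers (53.0 to 60.4 and 28.9 to 30.9 CPM), 1 of 5 CD8 T and NK cell markers (25.5 to 25.9 and 23.2 to 23.7 CPM) and 2 of 4 plasmacytoid dendritic cell markers (94.2 to 106.0 and 95.2 to 101.5 CPM). Bst2, which was not called, led the sum of the plasmacytoid dendritic cell list, with means of 87.8 CPM in WT and 89.8 CPM in KO. The 2 called lower in that list were Siglech (2.76 CPM in WT, 1.38 CPM in KO) and Flt3 (0.988 CPM in WT, 0.442 CPM in KO). No marker of these lists was at 0 in all 6 libraries. The groups also differed in Xist, which in female cells is transcribed from the inactive X chromosome and coats it, at 0.187, 0.205 and 0.424 CPM in WT and between 123.9 and 144.7 CPM in KO. RNA of the 4 Y-linked genes examined was counted in all 6 libraries, and of these Ddx3y, Kdm5d and Uty were called lower in KO whereas Eif2s3y was not called. Each KO library thus held Xist and Y-linked RNA together, with Ddx3y at 76.6, 79.4 and 80.0 CPM in KO replicates 1, 2 and 3. Whether the KO libraries were pools of cells from both sexes was not tested.

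Foxp3 was the most abundant of the 10 by counts. It was at 1154, 1120 and 1134 CPM in WT replicates 1, 2 and 3 and at 1062, 1047 and 1046 CPM in the KO replicates. Every KO library was therefore below every WT library, by at least 57.1 CPM. The log2 fold change was -0.11 (SE 0.030, 95% interval -0.18 to -0.046, adjusted p = 0.0163 from edgeR). In bulk samples fewer Foxp3-expressing cells in the sort and less Foxp3 RNA per cell cannot be told apart, for Foxp3 as for the other factors below. Foxp3 lies on the X chromosome (GRCm38, chrX:7573644-7595245, plus strand), and its change cannot be told apart from whatever separates the groups in Xist. Scaling the libraries without the genes of the X and Y chromosomes left the log2 fold change at -0.11 (adjusted p = 0.0156). That setting alters only the scaling factors of the libraries, so it cannot separate Foxp3 from the difference in Xist.

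The call of Foxp3 rested on small margins. Without KO replicate 1, 2 or 3 the adjusted p was 0.0508, 0.0922 and 0.0703, although the log2 fold change stayed between -0.12 and -0.10 whichever library was left out. When libraries were scaled on the T cell receptor complex genes Cd3d, Cd3e, Cd3g and Cd247 together with Cd4, a scaling chosen after the values were seen, it was -0.053 (adjusted p = 0.351). Of these 5 genes Cd3g alone was called (log2 fold change -0.12, adjusted p = 0.0401). A sort on CD25 can also hold activated conventional T cells. Of 4 genes that mark these (chosen after the values were seen), Ifng and Il21 were called higher in KO and Cd40lg (log2 fold change 0.020, adjusted p = 0.827) and Il2 (0.57, adjusted p = 0.0655) were not, and their sum was 35.2 to 37.2 CPM in WT and 44.3 to 46.1 CPM in KO. Their part in the Foxp3 result was not tested.

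Exons of Foxp3 overlap those of Flicr on the same strand and of Ccdc22 and Ppp1r3f on the other, and 23.1% of the 50-base stretches of its transcripts also occur in transcripts of other genes. Whether reads were counted by strand is unknown from the sources used here, so reads of these genes may be shared. Flicr, a long noncoding RNA at the Foxp3 locus, was counted at 10.9 to 14.1 CPM over the 6 libraries (log2 fold change -0.068, adjusted p = 0.627). For Ccdc22 the log2 fold change was -0.092 (adjusted p = 0.145) and for Ppp1r3f 0.012 (adjusted p = 0.874). All 3 were far below Foxp3 in counts.

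The Ikaros family members were examined next. Ikzf2, which encodes Helios, was at 342, 359 and 364 CPM in WT and at 319, 339 and 341 CPM in KO. The groups missed each other by 0.964 CPM. The log2 fold change of -0.091 (SE 0.037, 95% interval -0.17 to -0.012) gave an adjusted p of 0.094 and was not called. Without WT replicate 1, the lowest of its group, it was -0.12 with an adjusted p of 0.0127. It was -0.043 (adjusted p = 0.287) with the trend on GC content removed and -0.033 (adjusted p = 0.62) with scaling on T cell receptor complex genes. Ikzf4, which encodes Eos, was at 104, 108 and 108 CPM in WT and at 106, 111 and 112 CPM in KO. These ranges overlapped, and its log2 fold change of 0.039 (95% interval -0.039 to 0.12, adjusted p = 0.495) was not called under any of the settings tried.

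Runx1, which binds DNA with its partner Cbfb and associates with Foxp3, was at 124, 123 and 133 CPM in WT and at 136, 134 and 138 CPM in KO. All KO libraries were above all WT libraries, by 1.36 CPM at the nearest. With a log2 fold change of 0.11 (SE 0.038, 95% interval 0.029 to 0.19) its adjusted p was 0.0502, at the threshold, and it was called in 11 of the 21 other settings. Leaving out WT replicate 3, the highest of the WT libraries, gave 0.15 and an adjusted p of 0.00591.

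Bach2, a repressor that limits effector differentiation in Tregs and conventional T cells and occupies AP-1-like sites, showed the clearest rise. The gene lies on the plus strand at chr4:32238804-32586108 (GRCm38). It was at 129, 124 and 121 CPM in WT and at 142, 148 and 149 CPM in KO. The lowest KO library was 13.4 CPM above the highest WT library. The log2 fold change was 0.23 (SE 0.036, 95% interval 0.15 to 0.31, adjusted p = 0.00045 from edgeR), and it ranged from 0.20 to 0.29 over the 21 other settings with an adjusted p of at most 0.00582. B cells also express Bach2. The sum of the 8 B cell markers, given above, was lower in KO, and its part in the Bach2 result was not tested. The antisense transcript Bach2os was at 0.314 to 0.907 CPM in the 6 libraries (log2 fold change -0.74, adjusted p = 0.0989).

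TCF-1 and Lef1 are related factors that bind the same DNA letters, read CTTTGA or TCAAAG according to strand, and partner with β-catenin or with Groucho/TLE corepressors. Lef1 lies at chr3:131110471-131224356 on the plus strand and Tcf7 at chr11:52252371-52283014 on the minus strand (GRCm38). Lef1 was at 185, 181 and 189 CPM in WT and at 198, 199 and 203 CPM in KO. Tcf7 was at 744, 766 and 807 CPM in WT and at 833, 827 and 835 CPM in KO. For both genes every KO library exceeded every WT library. The log2 fold change was 0.11 for Lef1 (SE 0.032, 95% interval 0.042 to 0.18, adjusted p = 0.0231) and 0.11 for Tcf7 (SE 0.035, 95% interval 0.032 to 0.18, adjusted p = 0.0394). The KO libraries of Tcf7 varied by only 0.514% (coefficient of variation), the lowest among the 10 factors, against 4.16% in WT.

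Neither call was stable when libraries were left out. Lef1 had an adjusted p of 0.12 without WT replicate 2 and of 0.0612, 0.0839 and 0.097 without KO replicate 1, 2 and 3. Tcf7 had an adjusted p of 0.0516 and 0.142 without WT replicate 1 and 2, and of 0.118, 0.114 and 0.118 without KO replicate 1, 2 and 3. With library sizes alone and no TMM factor, both were above the threshold, at 0.0869 for Lef1 and 0.133 for Tcf7. Of the 50-base stretches of Lef1 transcripts, 13.7% occur in other transcripts, among them those of Gm43352 on the other strand, whereas Tcf7 and Id3 share none.

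Since TCF-1 and Lef1 are themselves among the factors, the DNA upstream of the factors' start sites was searched for their letters. RefSeq promoters (GRCm38.p6, 250 bases before to 50 after a start) were found for 8 of the 10, all but Ikzf2 and Ikzf4. In the 150 bases before a start, read on both strands, CTTTGA occurred for Bach2 and for 1 of 4 starts of Lef1, and for none of the starts of the other 6. A window of Tcf7, of Runx1 and of another Lef1 start lies outside annotated exons too, but holds no match and is not shown. The matched windows also lie outside annotated exons. They are shown because each holds a match and belongs to a factor called higher in KO, with the match in capitals. They are on the plus strand, at chr4:32417285-32417434 for Bach2, within the gene, and chr3:131156144-131156293 for Lef1, also within the gene:
Bach2: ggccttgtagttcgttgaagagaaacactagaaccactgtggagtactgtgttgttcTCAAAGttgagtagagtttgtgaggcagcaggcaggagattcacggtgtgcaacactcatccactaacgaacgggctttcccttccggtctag
Lef1: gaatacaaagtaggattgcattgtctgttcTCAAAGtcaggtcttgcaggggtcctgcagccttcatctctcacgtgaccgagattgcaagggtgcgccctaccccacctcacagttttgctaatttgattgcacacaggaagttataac
The same letters occurred in the last 150 bases before the start of 7.93% of 32851 RefSeq promoters and in 16.0% of them over all 300 bases. This share is per promoter, whereas several starts were searched for most of the factors (up to 5, for Satb1). The Runx letters TGTGGT, the forkhead letters TGTTTA and the AP-1 letters TGANTCA had no match in the windows shown. They occurred in the same 150 bases of 8.40%, 6.93% and 4.24% of promoters. Over all the starts searched, the Runx and AP-1 letters had no match in these 150 bases. The forkhead letters occurred there before each of the 3 starts of Foxp1 and before no start of the other factors. Those Foxp1 windows overlap annotated exons and are not shown. A match is a description of the letters only, and no binding was measured here.

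Satb1, a chromatin organizer that is needed for Treg development in the thymus and is repressed by Foxp3 in mature Tregs, was at 447, 437 and 443 CPM in WT and at 465, 459 and 458 CPM in KO. The groups were separated by 11.0 CPM, but the log2 fold change of 0.058 (95% interval -0.0065 to 0.12) was not called (adjusted p = 0.19). Foxp1, a forkhead factor that enforces quiescence in naive T cells and supports Foxp3 binding, was at 217, 231 and 242 CPM in WT and at 244, 241 and 250 CPM in KO. KO replicate 2 lay within the WT range. Its log2 fold change of 0.091 (95% interval 0.0057 to 0.18) had an adjusted p of 0.119. Without WT replicate 3 it was 0.13 (adjusted p = 0.0207).

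Id3, an inhibitor that binds E proteins such as E2A and keeps them off DNA, was the factor with the largest fall. Id3 lies at chr4:136143497-136145755 on the plus strand (GRCm38). It was at 70.2, 60.0 and 63.8 CPM in WT and at 56.7, 55.4 and 52.5 CPM in KO. All 3 KO libraries were below all 3 WT libraries, with 3.27 CPM between the nearest. The log2 fold change was -0.24 (SE 0.055, 95% interval -0.36 to -0.12, adjusted p = 0.00638 from edgeR), and between -0.29 and -0.17 over the 21 other settings with an adjusted p of at most 0.0443. Its WT libraries varied most among the factors (coefficient of variation 7.99%). B cells transcribe Id3 as well as Bach2, and the B cell markers and Id3 were both lower in KO. Their part in the Id3 result was not tested.

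**Figure D2:**
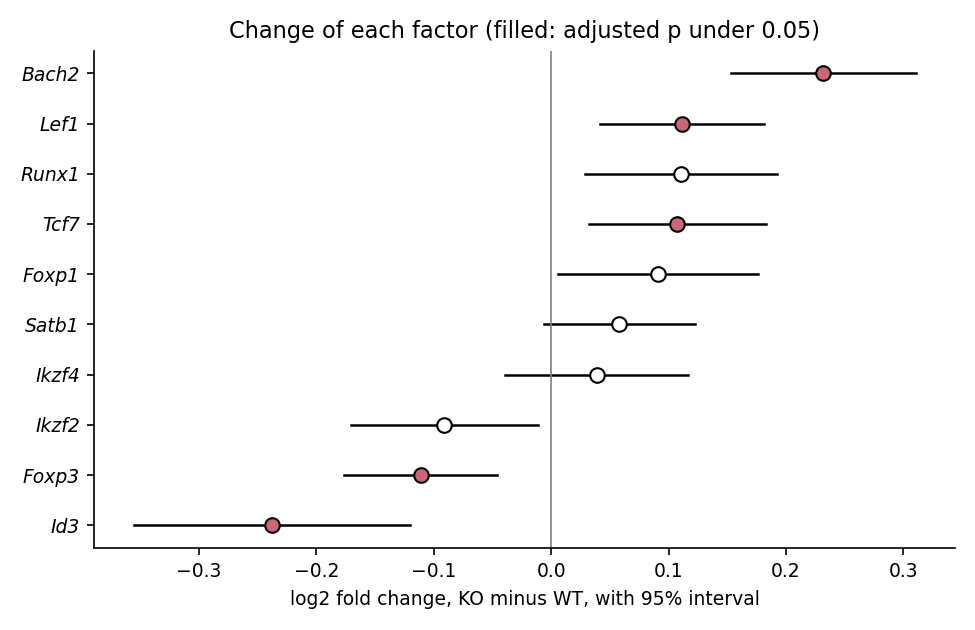
Log2 fold change of each factor between KO and WT (x axis) with its 95% interval, where filled points have an adjusted p under 0.05. The intervals of Bach2, Lef1, Runx1, Tcf7 and Foxp1 lie above 0, those of Ikzf2, Foxp3 and Id3 lie below 0, and no factor reaches 0.4 in either direction.

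Exact permutation tests on log2 CPM over the 20 splits of 3 against 3 libraries were run for each factor. The p was 0.1, the smallest that this design allows, for the 8 factors without overlap, 0.2 for Foxp1 and 0.3 for Ikzf4 (two-sided). At an unadjusted p under 0.05 from edgeR, 8 of the 10 passed, all but Ikzf4 and Satb1. The share of all genes at that threshold is not given here. At the stricter adjusted threshold it was already 24.1%, and 35.8% among genes with a mean of at least 50 CPM. The count of 8 is therefore not read as particular to the factors. The median log2 fold change of the 10 was 0.075, and over all genes tested it was -0.0042. Their median absolute log2 fold change of 0.109 stood beside 0.082 for all genes with a mean of at least 50 CPM.

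The count of called factors was itself sensitive to single libraries. It was 3 without WT replicate 2, where Bach2, Foxp3 and Id3 remained, and 2 without each of the KO replicates, where Bach2 and Id3 remained. The share of all genes called fell in the same fits. It went from 24.1% to 15.4% without WT replicate 2, and to 16.2%, 15.6% and 16.7% without KO replicates 1, 2 and 3. In the plot of the other settings no factor changed its direction.

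**Figure D3:**
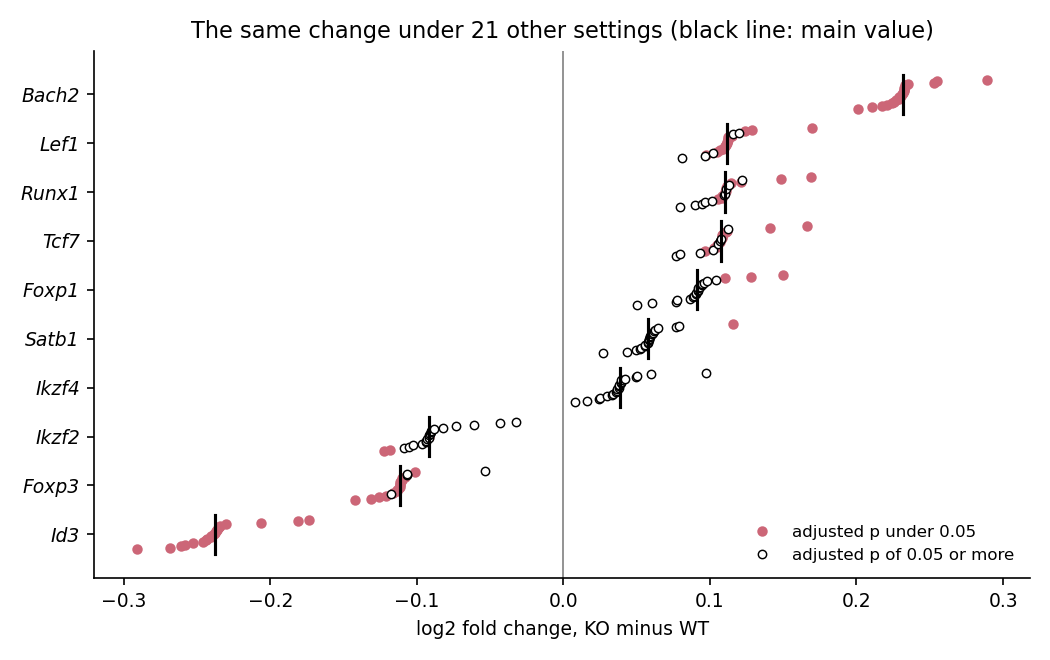
Log2 fold change of each factor (x axis) under 21 other settings, drawn as points that are filled where the adjusted p was under 0.05, beside the main value (black line). All points of Bach2 and Id3 are filled, all of Ikzf4 are open, and no factor has points on both sides of 0.

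Levels were compared between the factors as RPKM (CPM divided by the annotated exon length in kilobases). In WT the order was Tcf7 at 294 ± 12.2 RPKM (SD, n = 3), Foxp3 at 248 ± 3.80, Id3 at 36.1 ± 2.88, Ikzf2 at 30.6 ± 0.966, Satb1 at 23.3 ± 0.268, Lef1 at 21.04 ± 0.462, Ikzf4 at 17.8 ± 0.446, Foxp1 at 16.7 ± 0.888, Bach2 at 12.6 ± 0.417 and Runx1 at 10.5 ± 0.479. Tcf7 and Foxp3 stood far above the other 8 factors. The order was the same in KO, from Tcf7 at 317 ± 1.63 and Foxp3 at 229.8 ± 2.02 to Runx1 at 11.3 ± 0.162 RPKM (SD, n = 3). Among neighbours in the order, the 3 libraries overlapped only for Ikzf4 and Foxp1 in WT and in KO, and for Id3 and Ikzf2 in KO. The choice of length moved this order. With the length of the longest transcript Satb1 came next after Foxp3, at 70.9 ± 0.817 RPKM in WT (SD, n = 3), and Tcf7 (312 ± 13.0) overlapped Foxp3 (296 ± 4.53).

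Genes of the same families and pathways were read as lists, beside the 24.1% of all genes called. Of 14 close relatives of the factors 13 were tested (Id4 was not), and 5 were called, 4 higher and 1 lower in KO (median log2 fold change -0.027). The split was 2 and 1 with library sizes alone and 4 and 0 with T cell receptor complex scaling. Bach1, the relative of Bach2 that senses heme, rose from 27.6 to 39.1 CPM (log2 fold change 0.50, adjusted p = 8.49e-06), more than Bach2 itself on the log2 scale. Foxp4 (0.17), Ikzf5 (0.16) and Tcf7l1 (0.32) were also called higher, and the call that was lower was Foxp2, at under 1 CPM in every library. The 8 that were not called included Ikzf1, Ikzf3, Id2, Runx2 and Runx3, named here after their values were seen. This list's count rested on single libraries, with 3 called without WT replicate 1 or 2, 1 without KO replicate 1 or 2, and 2 without KO replicate 3. The share of all genes called was 28.2% without WT replicate 1, and between 15.4% and 16.7% in the other fits named here.

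Among 21 partners, meaning subunits, cofactors and DNA-binding partners of the factors, 11 were called, 9 higher and 2 lower (median log2 fold change 0.085). All 3 small Maf genes, whose proteins pair with Bach proteins on DNA, were called higher. Maff rose from 36.2 to 87.7 CPM (log2 fold change 1.27, adjusted p = 1.88e-09), Mafk from 142 to 214 CPM (0.59, adjusted p = 8.07e-07) and Mafg from 39.4 to 46.9 CPM (0.25, adjusted p = 0.00359). Tle1, a corepressor of TCF-1 and Lef1, was called higher (0.45) at low levels, 8.38 CPM in WT and 11.6 CPM in KO. Among its relatives, named after their values were seen, Tle3 was called higher (0.14). Tle4 (0.11), Tle2 (-0.27) and Tle5 (-0.092) were not called. Ctnnb1, which encodes the coactivator β-catenin of TCF-1 and Lef1, was lower at 174 CPM in KO against 211 CPM in WT (-0.28, adjusted p = 6.49e-05). Cbfb, the partner of Runx1, was the other gene called lower (-0.19, adjusted p = 0.00645), and it is named here after its value was seen. The E protein genes Tcf3 (0.032) and Tcf4 (-0.20), whose products Id3 binds, were not called, whereas Tcf12 was (0.16). These last 3 are also named after their values were seen.

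Of 17 regulators of Foxp3 transcription 11 were called, 8 higher and 3 lower, with a median log2 fold change of 0.11. With T cell receptor complex scaling 9 were higher and 0 lower. Rel, the NF-κB subunit c-Rel that acts at a Foxp3 enhancer, rose from 159 to 300.4 CPM (log2 fold change 0.91, adjusted p = 1.56e-09). The nuclear receptors Nr4a1 (0.70) and Nr4a3 (0.89), which are induced by T cell receptor signals, were called higher, as were Foxo1 (0.24) and Stat5a (0.22). The 3 called lower, named after their values were seen, were Ets1 (-0.14), Uhrf1 (-0.16) and Dnmt1 (-0.11). Ets1 was at 1733 CPM in WT and 1570 CPM in KO. Foxp3 itself was also lower in KO. Without KO replicate 1 the count was 7, and without KO replicate 2 it was 6, where 16.2% and 15.6% of all genes were called.

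**Figure D4:**
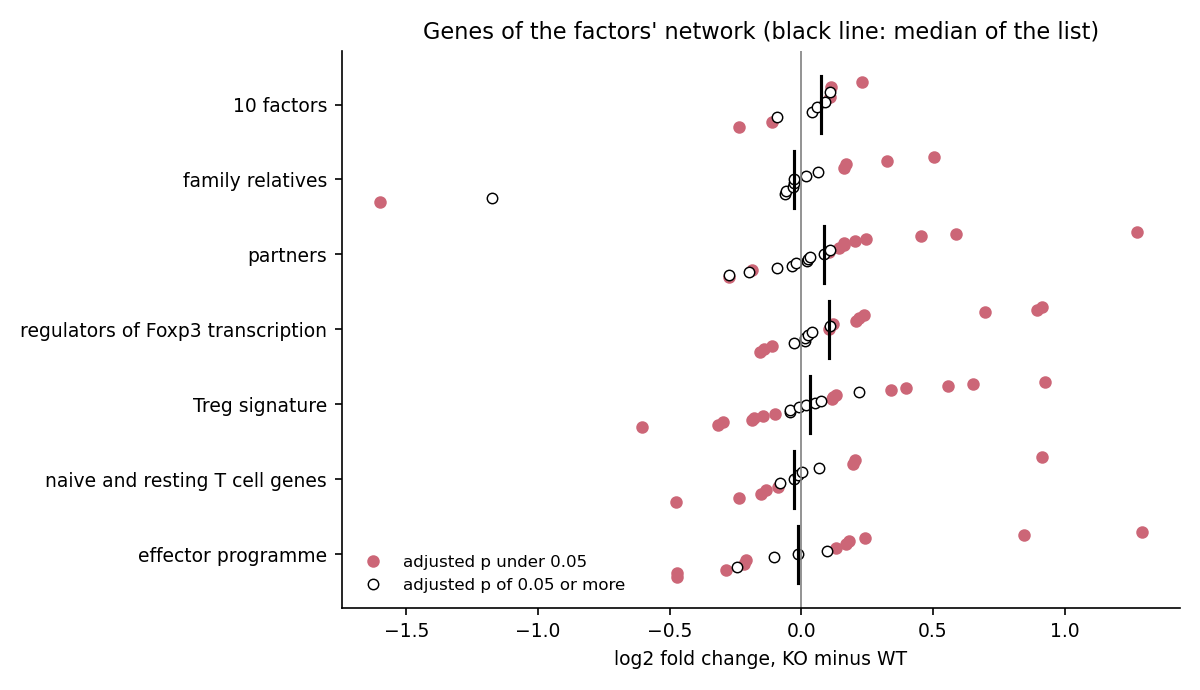
Log2 fold change between KO and WT (x axis) of each gene tested in 7 lists, with filled points for an adjusted p under 0.05 and a black line for the median of the list. The 10 factors lie within a narrower range than the genes of each other list, whose largest rises are Bach1, Maff, Rel, Il10, Ccr7 and Bhlhe40.

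Genes of the Treg, resting and effector programmes moved in both directions. Of 22 Treg signature genes 15 were called, 8 higher and 7 lower (median log2 fold change 0.034). This became 5 higher and 7 lower with library sizes alone and 10 higher and 4 lower with T cell receptor complex scaling. Il10, an inhibitory cytokine (log2 fold change 0.93), the inhibitory receptor gene Ctla4 (0.65), Cd83 (0.56) and Lrrc32, which encodes the TGF-β docking protein GARP (0.40), were higher, and Fgl2 (-0.60) was lower. Il2ra, which encodes the CD25 used in the sort, was at 480 CPM in WT and 433 CPM in KO (-0.15, adjusted p = 0.00658), and it is named after its value was seen.

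Of 13 naive and resting T cell genes 8 were called, 3 higher and 5 lower, but with T cell receptor complex scaling 4 were higher and 2 lower. Those higher were the chemokine receptor gene Ccr7 (log2 fold change 0.91), S1pr1, the receptor for lymph node exit (0.20), and Klf2, its activator (0.20). Dapl1 was among those lower (-0.47). The median log2 fold change was -0.027, beside the rises of Bach2, Lef1 and Tcf7.

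In the effector programme 11 of 15 genes were called, 6 higher and 5 lower (median log2 fold change -0.011). The split was 5 higher and 5 lower with library sizes alone, 4 and 5 without KO replicate 3, and 7 and 5 with T cell receptor complex scaling. Bhlhe40 rose most, from 208 to 509 CPM (log2 fold change 1.29, adjusted p = 3.03e-11), and Nfil3 was also higher (0.85). Zeb2 (-0.47) and Klrg1 (-0.29) were lower. Prdm1, which encodes Blimp-1 and is a target that Bach2 represses, was at 36.5 CPM in WT and 36.1 CPM in KO (log2 fold change -0.011, adjusted p = 0.896) and is named after its value was seen.

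For the called factors, the genes with the most similar pattern were found by the root mean square difference of centred log2 CPM over the 6 libraries, among 8647 genes with a mean of at least 10 CPM. Nearest to Foxp3 were Ap1g2 (0.0071), Flii (0.011) and Chmp5 (0.013), where the median over all genes was 0.093. Nearest to Bach2 were Cracr2a (0.012), Abcc5 (0.014) and Chst15 (0.015). For Lef1 they were Med15, Drosha and Zmynd8, between 0.0097 and 0.011. For Tcf7 they were Srp9, Cytip and Imp4, between 0.0076 and 0.012. Id3 had more distant neighbours, S1pr4 (0.030), Mgat1 (0.037) and Relt (0.037). The 6 libraries carry the difference between groups, so any gene with a like change and little spread comes near.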

How the data were processed

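The deposited table holds the authors' raw counts by gene symbol in 6 libraries (133283969 to 209041812 counts each, 32285 rows of which 40 repeat a symbol, none without a gene). The submitters' processing notes name HISAT2, mm10 and DESeq2. The supplemental methods describe StringTie TPM for other libraries, those of Foxp3Cre mice. For this table the counting tool, annotation and strand setting are not given in the sources used here. The number of independent fragments is unknown, so errors come from the spread between libraries only.

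Counts were scaled by TMM (factors 0.987 to 1.014) and the 17307 genes kept by filterByExpr were tested in R 4.3.3 with the quasi-likelihood test of edgeR 4.0.16 (newer method, robust, Benjamini-Hochberg adjustment, called at an adjusted p under 0.05). The prior count of the log2 CPM in the exact permutation tests was 2. Positions and exon lengths were taken from GENCODE for GRCm38, the build called mm10. Replicate libraries had log2 CPM correlations of 0.980 to 0.989, and none was duplicated. The code of the test was checked on simulated counts with 200 changed genes, drawn independently for each library. Such counts cannot show whether small changes are called soundly in these libraries. Other settings were DESeq2 1.42.0, limma-voom (limma 3.58.1), other scalings and filters, the replicate number as a block, length and GC trends, fewer counts and leaving out each library.

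The 10 factors, gene lists and marker lists were chosen with earlier results of these data known. Named genes were Zfp335, the 10 factors, up to 5 called genes per list with the largest absolute change and a mean of at least 1 CPM, the 3 nearest genes of each called factor, and the sex-linked genes. Others are marked as named after their values were seen. Some genes that this rule names are not reported here. No sample was left out.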

Additional observations from a re-analysis of the deposited data

How the results depend on the processing

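No log2 fold change of Zfp335 or the 10 factors changed its sign under any of the 21 other settings, and Bach2, Id3, Ikzf4 and Zfp335 kept their side of the threshold in all of them. The other changes are log2 fold changes, and their causes were not tested. Foxp3 was no longer called with scaling on T cell receptor complex genes, chosen after the values were seen (-0.053), under which Satb1 (0.12), Foxp1 (0.15) and Runx1 (0.17) were called. That scaling gave 3065 genes higher and 1420 lower in KO, against 2082 and 2088 in the main analysis. With library size only the split was 1622 and 2575, Ikzf2 was called (-0.12), Lef1 (0.081) and Tcf7 (0.077) were not, and 3 family relatives were called. Tcf7 was not called with upper-quartile factors (0.093) or edgeR's legacy method (0.11). Foxp1 was called with the GC trend removed (0.11). Runx1 was called with RLE size factors (0.11), DESeq2 (0.11), no filter (0.11), a filter of at least 1 CPM in 3 libraries (0.11), counts divided by 4 (0.11), without mitochondrial, ribosomal, haemoglobin and immunoglobulin genes (0.11), and with the length (0.11) or GC (0.12) trend removed. DESeq2, limma-voom and the legacy method each called 3 family relatives.

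No pairing by replicate number was seen over the genes as a whole, where the correlations of same-numbered deviations were 0.019, -0.030 and -0.0017. A pairing that touches few genes would not show in these correlations. With the replicate number as a block, Ikzf2 (-0.092, adjusted p = 0.0472) and Runx1 (0.11, adjusted p = 0.0348) were called, and 4227 genes against 4170.

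Leaving out each library in turn gave -0.12 to -0.10 for Foxp3, -0.12 to -0.061 for Ikzf2, 0.097 to 0.13 for Lef1, 0.080 to 0.14 for Tcf7, 0.050 to 0.13 for Foxp1 and 0.090 to 0.15 for Runx1. The counts called were 2 to 7 of the 10 factors, 1 to 5 of the family relatives, 6 to 11 of the regulators of Foxp3 transcription and 2740 (without WT replicate 2) to 4996 (without WT replicate 1) of all genes. The counts of partners, Treg signature, resting and effector genes called stayed within 1.5 times of their main values in every setting. The balance of higher and lower genes did not always hold for the Treg signature, resting and effector lists, as given beside each of them. The genotype and the difference in Xist cannot be told apart in this design. The labels and the methods differ on whether the controls carried ERCre and received tamoxifen. If they did not, effects of these could not be told apart from the deletion either.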
